A study of Mus musculus with 18 samples.

Results

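The genes of the major histocompatibility complex (MHC), called H2 in the mouse, and of antigen presentation were followed from chronically irradiated skin to papilloma and squamous cell carcinoma. The set holds every gene of the deposited table whose symbol begins with H2- (24 symbols, after 2 H2-Ke symbols were set aside) and 13 further genes of the same pathways, all of which were present. Together these are 37 of the 14521 named genes. By symbol, 24 belong to the class I pathway (15 heavy chains and 9 partners), 12 to the class II pathway (9 chains and 3 partners), and Cd1d1, a class I-like molecule that presents lipids, was kept apart. Membership was set by symbol and not by a value in any library.

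The tissues came from 6 female littermates of the SKH-1E Hairless strain, an outbred line prone to skin tumours under ultraviolet light. All 6 mice had been exposed for a long period to ultraviolet B from solar simulators, and tissue was taken after the exposure had ended. Each mouse (numbers 2, 3, 7, 8, 9 and 10) gave chronically irradiated skin without a lesion (CHR), a benign wart-like lesion (papilloma, PAP) and an invasive keratinocyte tumour (cutaneous squamous cell carcinoma, SCC), so that every group has n = 6. The CHR control therefore carries the irradiation as well, and unirradiated skin was not analysed here. Exposure had begun when the mice were a few months old, and lesions were whole tissue whose tumour content had been judged by histology, so immune and stromal cells contribute to every library.

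MHC class I molecules consist of a polymorphic heavy chain and the light chain B2m and display peptides from the cytosol on nearly every nucleated cell. The peptides are cut by the proteasome, pumped into the endoplasmic reticulum by the transporter Tap1 and Tap2, and loaded there with the help of tapasin (Tapbp). MHC class II molecules are pairs of alpha and beta chains that are normally restricted to antigen-presenting cells such as Langerhans cells, dendritic cells, macrophages and B cells. They are built on the invariant chain Cd74, which proteases including Ctss remove in endosomes, and receive their peptides with the help of H2-DM. Nlrc5 switches on class I genes and Ciita class II genes, both through a promoter module bound by RFX and NF-Y factors, and interferon gamma induces either route. In skin, Langerhans cells are the resident class II-bearing cells of the epidermis.

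The promoters of both classes share a recognisable element, which is common to them while the class I and class II pathways parted in papilloma. For this reason the stretches of bases just before the start of transcription are shown for 4 class II and 3 class I genes. All are on the sense strand, 5′ to 3′, from RefSeq for GRCm38.p6, and end at the base before the annotated start. Capitals mark ATTGG, the core bound by NF-Y, its extended form TGATTGG, and the NF-κB-type palindrome GGGATTCCC, each searched on both strands and marked on either. The last capitals of H2-K1 are the beginning of a match that runs on past the start. H2-Aa lies on the minus strand at chr17:34287824-34287943, H2-Eb1 on the plus strand at chr17:34305747-34305866, H2-DMb1 on the plus strand at chr17:34153071-34153190 and H2-Ob on the plus strand at chr17:34238785-34238904. B2m lies on the plus strand at chr2:122147567-122147686, H2-K1 on the minus strand at chr17:34000334-34000513 and H2-D1 on the plus strand at chr17:35262914-35263093.
H2-Aa: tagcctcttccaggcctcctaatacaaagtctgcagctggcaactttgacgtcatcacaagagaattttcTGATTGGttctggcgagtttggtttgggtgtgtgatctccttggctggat
H2-Eb1: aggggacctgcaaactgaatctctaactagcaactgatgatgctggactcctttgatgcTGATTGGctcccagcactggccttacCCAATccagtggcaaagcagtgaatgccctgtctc
H2-DMb1: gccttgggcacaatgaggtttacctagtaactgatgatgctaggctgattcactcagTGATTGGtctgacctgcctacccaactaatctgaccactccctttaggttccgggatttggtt
H2-Ob: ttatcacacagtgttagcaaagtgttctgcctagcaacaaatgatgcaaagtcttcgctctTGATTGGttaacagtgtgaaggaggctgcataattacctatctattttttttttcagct
B2m: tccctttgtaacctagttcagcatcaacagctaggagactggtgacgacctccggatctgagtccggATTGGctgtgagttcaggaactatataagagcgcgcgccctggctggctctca
H2-K1: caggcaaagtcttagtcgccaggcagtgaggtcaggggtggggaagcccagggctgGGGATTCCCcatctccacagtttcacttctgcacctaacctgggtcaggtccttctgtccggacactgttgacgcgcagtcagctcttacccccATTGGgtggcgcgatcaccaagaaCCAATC
H2-D1: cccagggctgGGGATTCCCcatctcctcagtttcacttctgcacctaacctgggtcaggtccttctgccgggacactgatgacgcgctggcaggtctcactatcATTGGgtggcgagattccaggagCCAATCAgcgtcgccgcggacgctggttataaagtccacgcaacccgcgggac

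Of the 37 genes, 29 had a promoter entry of 250 bases before to 50 bases after the start, and 3 of these had 2 entries. TGATTGG, which contains ATTGG, stood in 7 of 9 class II genes with an entry and in 10 of 20 class I genes, against 7.82% of all 32851 promoters of that length. In all 7 class II genes it read as written on the sense strand, beginning 45 to 102 bases before the start. Among class I genes it read as written in 2 (H2-T22 and Psmb9) and as its reverse complement in 8, as the CCAATCA of H2-D1 shows. Psmb9 and Tap1, on opposite strands, share a single site that counts for both genes and in both directions, here and for ATTGG. The shorter ATTGG was found in 8 of 9 class II and 15 of 20 class I genes and in 37.4% of all promoters. Among class I genes it read as written in 12 and as its reverse complement in 11, with some holding both. Among class II genes these counts were 8 and 1. H2-D1 had both, as written 76 bases and reversed 53 bases before the start, so its CCAATCA is not its only match. GGGATTCCC occurred in 4 class I genes (H2-D1, H2-K1, H2-Q6 and H2-Q7), in 0 of the 9 class II genes and in 0.353% of all promoters. These are matches of letters and do not show binding.

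The 18 libraries held between 15.4 M and 20.9 M recovered reads, with a median of 18.9 M. Values below are normalised read counts, that is, reads recovered from the deposited table and divided by the library's size factor, and "called" means an adjusted p under 0.05 in limma with Benjamini-Hochberg adjustment over 14521 genes. Fold changes marked as fitted are on the log2(value + 1) scale of the deposited table, which understates the change of weakly expressed genes. Keratinocyte markers were abundant in all 18 libraries, with a summed level of 429935 to 846157 in CHR, 635636 to 1157182 in PAP and 205492 to 752257 in SCC. Skeletal muscle markers were far higher in CHR (342863 to 517558) than in PAP (88 to 25526) or SCC (198 to 171534), and their part in the results was not tested. The 3 comparisons share libraries and are therefore not independent of one another. Heavy chain genes of the K, D, Q and T regions are close copies of one another and the counting of shared reads is not stated, so their values are uncertain one by one.

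In CHR, class I light chain and class II partner messages were the most abundant of the set. Scaled to exon length, the mean level in CHR was 38902 normalised reads per kb for B2m, 13394 for Ctss and 13029 for Cd74. The classical heavy chains H2-K1 and H2-D1 followed with 9598 and 9339 reads per kb, a gap smaller than the SD of either gene. The class II chains H2-Eb1, H2-Ab1 and H2-Aa had 5111, 3733 and 3609 reads per kb. The loading factor Tapbp (1526), the immunoproteasome subunit Psmb8 (916) and the transporter Tap1 (879) were lower. The M region gene H2-M9 (17.5 reads per kb) and the class II chain H2-Eb2 (8.33 reads per kb) were near the bottom, whereas H2-M2 (636) and H2-M3 (444) were in the middle of the order, and H2-Q2 was lowest at 2.53.

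The first comparison asked what changes between irradiated skin and the benign tumour. In PAP vs CHR all 12 class II pathway genes were lower and called, whereas 28.7% of all tested genes were called lower in PAP. Their fitted log2 changes ran from −3.27 (Ctss) to −0.35 (H2-Oa) with a median of −1.76, against a median of 0.00 over all genes. Of the 24 class I pathway genes, 5 were called lower and 1 higher (22.8% of all genes were called higher), with a median of −0.36. The 9 partners of the class I heavy chains (B2m, Tap1, Tap2, Tapbp, Erap1, Psmb8, Psmb9, Psmb10 and Nlrc5) included 0 called genes in limma, 0 also at an unadjusted p under 0.05, with a lowest adjusted p of 0.228. Because whole tissue was sequenced, fewer cells of a type and less RNA per cell cannot be told apart. When every library was centred on its median gene, the median of all genes moved to 0.14, and 11 class II genes were called lower, with 4 class I genes lower and 1 higher.

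**Figure D1:**
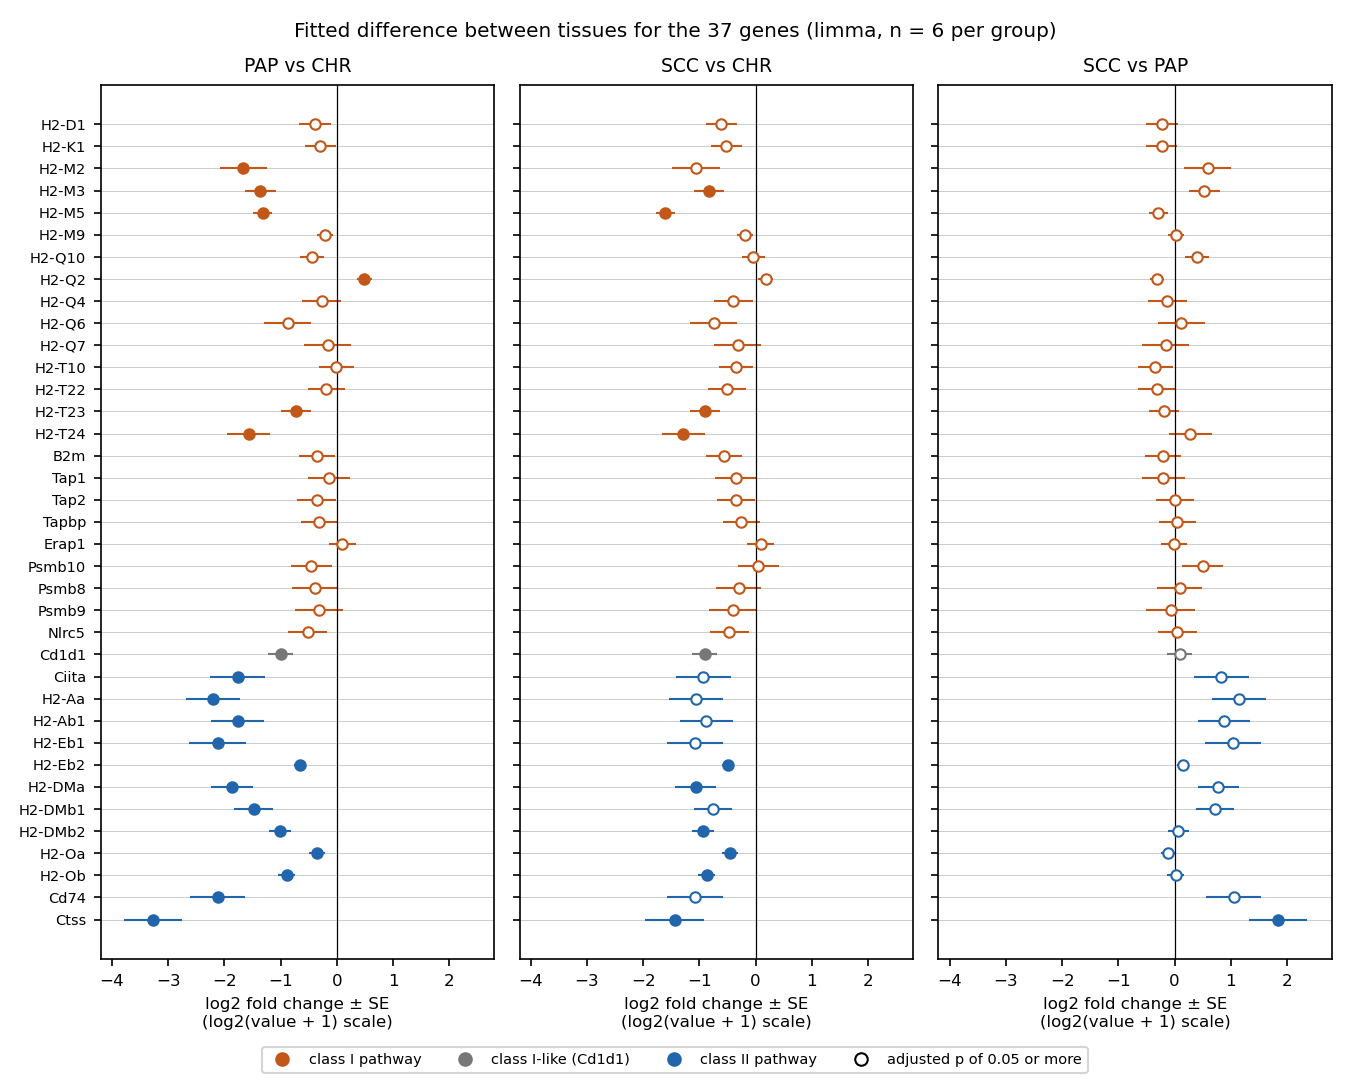
Fitted log2 fold change with its standard error (log2(value + 1) scale, limma, n = 6 per group) for each of the 37 genes in PAP vs CHR, SCC vs CHR and SCC vs PAP. Filled points have an adjusted p under 0.05: in PAP vs CHR all 12 class II genes (blue) are filled and lie left of 0, from −3.27 to −0.35, while 18 of the 24 class I genes (orange) are open.

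Among the chains of the classical class II molecules, H2-Aa, the alpha chain of I-A, ranged from 6182 to 18249.8 normalised reads in CHR (median 14165) and from 548 to 7351 in PAP (median 3236). Every papilloma was below the irradiated skin of its own mouse, and the groups overlapped because mouse 9's papilloma exceeded mouse 10's skin. The fitted change was −2.20 ± 0.48 (SE, limma adjusted p = 0.000962).

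H2-Ab1, the beta chain of the same molecule, lay between 4584 and 13909 in CHR (median 10099) and between 586 and 6665 in PAP (median 3066), a change of −1.76 ± 0.47 (limma adjusted p = 0.00463). H2-Eb1, the beta chain of I-E, went from 4244 to 13766 (median 10003) in CHR to 362 to 5723 (median 2383) in PAP, with −2.12 ± 0.50 (limma adjusted p = 0.00197). For both genes PAP was lower than CHR in 6 of 6 mice, with the same overlap between mouse 9's papilloma and mouse 10's skin. H2-Eb2, a weakly expressed chain, fell from a mean of 28.3 ± 10 to 5.41 ± 2.36 (SD) without overlap. H2-Ea and H2-Ea-ps were not analysed here.

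The partners of class II fell with the chains. Cd74, the invariant chain, had 9677 to 32622 normalised reads in CHR (median 22429) and 951 to 12397 in PAP (median 5487), which was lower in 6 of 6 mice with overlapping groups (fitted change −2.12 ± 0.49, limma adjusted p = 0.00166). Ciita, the master regulator of class II transcription, was at 463 to 2420.4 in CHR (median 1321) and 39.6 to 745 in PAP (median 429), with −1.76 ± 0.49 and an adjusted p of 0.00629 in limma. It was lower in 6 of 6 mice, while the papillomas of mice 3 and 9 exceeded mouse 10's skin. Ctss showed the strongest decrease of the 37 genes, from 11822 to 28853 (median 17426) to 345 to 4535 (median 1790.1), and its groups did not overlap (−3.27 ± 0.52, limma adjusted p = 4.90e-05). Ctss is also abundant in macrophages, where it serves as a general endosomal protease.

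The genes that load and edit class II peptides behaved like the chains. H2-DMa, whose product with H2-DMb exchanges the invariant chain remnant for antigen, ranged from 656 to 1487 in CHR and from 72.7 to 592 in PAP, with no overlap. Its mean level dropped from 1113 to 287, H2-DMb1 from 514 to 161 and H2-DMb2 from 132 to 41.7. The pair that restrains H2-DM was lower too, with H2-Ob at 80 ± 20 against 21.3 ± 11.9 and H2-Oa at 23.6 ± 6.51 against 12 ± 10.6 (mean ± SD, n = 6). H2-Oa was the weakest of the 12 calls (limma adjusted p = 0.0397), was lower in 4 of 6 mice, and lost the call without mouse 2, 7, 8 or 10 (limma adjusted p 0.0941 to 0.168). In all, 5 of the 12 class II genes had groups without overlap in this direction, against 19.2% of all genes.

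Class I genes changed less. Of the 24, 22 had a fitted change below 0, but the median was −0.36 and 5 were called lower. H2-K1 ranged from 16897 to 36939.8 normalised reads in CHR (median 28861) and from 9034 to 31269.8 in PAP (median 27947). H2-D1 ranged from 16467 to 30794 in CHR (median 23378) and from 7367 to 28721 in PAP (median 20847). Both classical heavy chains overlapped widely between the groups and were lower in 4 of 6 mice. The fitted changes were −0.29 ± 0.28 and −0.39 ± 0.28 with limma adjusted p of 0.405 and 0.248. The light chain B2m had 21209 to 43572 in CHR (median 34005) and 9138 to 43486 in PAP (median 29307), with −0.35 ± 0.32 (limma adjusted p = 0.375).

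The class I machinery gave the same picture. The transactivator Nlrc5 ranged from 3738 to 11046 in CHR (median 5972) and 1521 to 8138 in PAP (median 5227), with −0.52 ± 0.35 (limma adjusted p = 0.228). The immunoproteasome subunit Psmb8 ranged from 1178 to 4810.1 and from 859 to 3741 (medians 3175 and 2381), and Psmb9 from 492 to 2457 and from 279 to 1745 (medians 1569 and 1347). Tap1 was at 2053 to 8144 in CHR and 1256 to 6817 in PAP (medians 4528 and 4703). Nlrc5, Psmb8, Psmb9 and Tap1 all had groups that overlapped and adjusted p of 0.228 to 0.78 in limma. Gene bodies of Psmb9 and Tap1 share 212 bases on opposite strands, and the strand setting of the counting is not stated, so a part of their reads cannot be assigned. The remaining partners had fitted changes of −0.36 (Tap2), −0.31 (Tapbp), 0.10 (Erap1) and −0.45 (Psmb10), of which 0 were called.

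**Figure D2:**
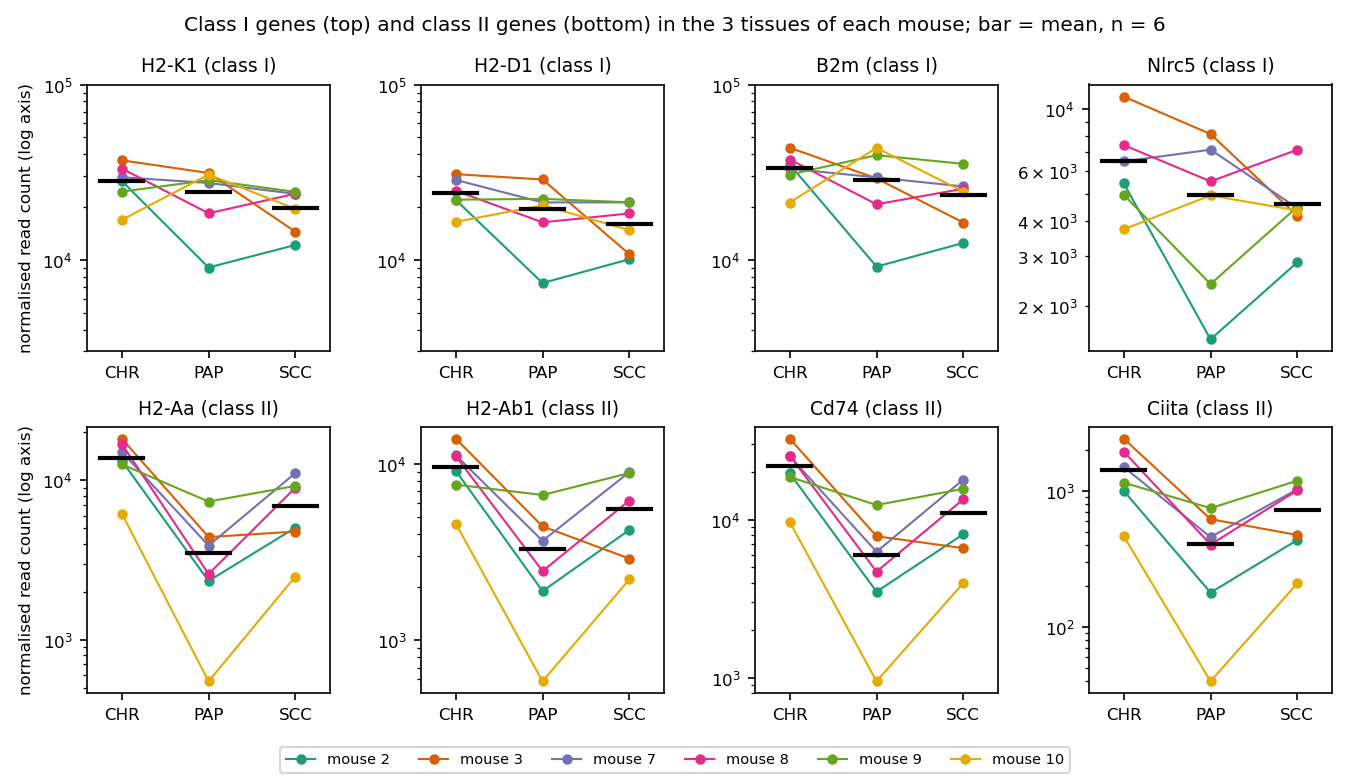
Normalised read count (log axis) of 4 class I pathway genes (top) and 4 class II pathway genes (bottom) in CHR, PAP and SCC, with a coloured line for each of the 6 mice and a black bar for the group mean. Class II lines drop in PAP in all 6 mice, whereas class I lines go up in some mice and down in others, and mouse 2's papilloma is the lowest for all 4 class I genes.

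The class I genes that did fall in papilloma were nonclassical heavy chains of the T and M regions. H2-T23, which encodes Qa-1, a ligand of inhibitory receptors on natural killer cells, fell from a mean of 1982 ± 750.1 to 1191 ± 533 (−0.72 ± 0.27, limma adjusted p = 0.0355), a call lost without mouse 2, 7 or 8. H2-T24 fell from 1451 to 445 on average and was lower in 6 of 6 mice. H2-M3, which presents formylated bacterial and mitochondrial peptides, had means of 639 and 204 and no overlap between groups. H2-M2 fell from 987 ± 289 to 335 ± 286. H2-M5 dropped from 70.8 to 135 (median 107) in CHR to 1.99 to 32 (median 18.6) in PAP, again without overlap (−1.32 ± 0.17, limma adjusted p = 5.90e-06). On the scale of normalised counts its ratio of means was 6.75-fold, which shows how far the fitted scale compresses a weak gene.

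A single member was called higher. H2-Q2, a heavy chain gene of the Q region, was at 1.03 to 9.05 normalised reads in CHR (median 5.62) and 9.67 to 44.8 in PAP (median 17.6), without overlap (0.49 ± 0.13, limma adjusted p = 0.00464). Non-overlapping groups with higher values in PAP were seen in 14.4% of all genes. Its level is among the lowest of the 37, and reads shared with other Q genes could move it. The other Q genes (H2-Q4, H2-Q6, H2-Q7 and H2-Q10) had fitted changes of −0.27, −0.87, −0.16 and −0.44 and were not called, as were H2-T10 (−0.01), H2-T22 (−0.19) and H2-M9 (−0.21). Cd1d1 fell from 160.4 to 315 (median 249) in CHR to 16.4 to 158 (median 86.2) in PAP, without overlap (2.52-fold on the means, limma adjusted p = 0.00096).

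The split between the classes was set beside position on the chromosome. Of the 37 genes, 29 lie on chromosome 17 of GRCm38. The 9 class II chain genes and 4 class I partners lie together in a stretch of 249 kb from 34092340 to 34341412, in the order H2-Oa, H2-DMa, H2-DMb2, H2-DMb1, Psmb9, Tap1, Psmb8, Tap2, H2-Ob, H2-Ab1, H2-Aa, H2-Eb1 and H2-Eb2. Within it all 9 class II genes were called lower in PAP, with fitted changes from −2.20 to −0.35. The 4 class I genes between them ranged from −0.39 to −0.14 with adjusted p of 0.397 to 0.78 in limma. The 5 class I genes called lower lie outside this stretch, from H2-T24 (start 36005695) to H2-M2 (end 37483552). H2-T22, H2-T10 and H2-M9 lie among them and were not called. The part of position in the split was not tested.

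**Figure D3:**
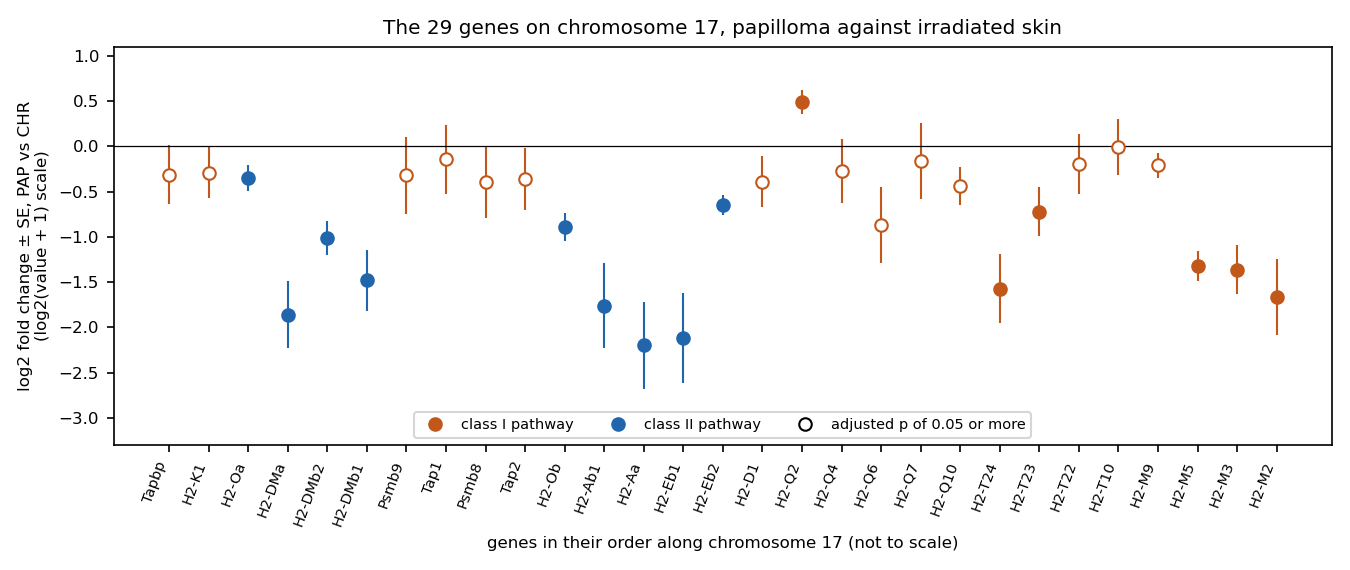
Fitted log2 fold change with its standard error in PAP vs CHR (log2(value + 1) scale, n = 6 per group) for the 29 genes on chromosome 17, in chromosomal order and not to scale. Psmb9, Tap1, Psmb8 and Tap2 (orange, open) stay between −0.39 and −0.14 while 8 of the 9 class II genes on both sides of them (blue, filled) lie lower, down to −2.20, and H2-Oa, at −0.35, does not.

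The class II genes H2-Ab1 and Cd74 were set against the class I genes H2-K1 and B2m, in turn, within each library. No scaling of a library could alter these ratios, which cover single genes and not whole classes. Both pairs were chosen with earlier results of these data known, and they come from the same libraries and are not independent. The log2 ratio of H2-Ab1 to H2-K1 averaged −1.60 in CHR and −3.11 in PAP, a difference of −1.52 ± 1.22 (SD over 6 mice) that was below 0 in 6 of 6 mice. A two-sided exact permutation test by sign flips within mice gave p = 0.0312, the smallest it can give with 6 mice, and 0.0469 after adjustment over the 6 ratio tests. For Cd74 and B2m the mean log2 ratio went from −0.67 to −2.47, a difference of −1.80 ± 1.35 with the same p values and again below 0 in 6 of 6 mice. Mouse 10 showed by far the widest gap, with −3.82 for the first pair and −4.38 for the second, and the smallest gaps were −0.41 (mouse 9) and −0.55 (mouse 2). Without mouse 10 the differences were −1.05 and −1.28, and with 5 mice this test cannot give a p below 0.0625.

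Papillomas were ordered differently by the 2 classes. Mouse 10's papilloma had the lowest H2-Aa, H2-Ab1, H2-Eb1, Cd74 and Ciita of all 18 libraries, yet its B2m (43486) was the highest of the 6 papillomas and its H2-K1 (30627) the second highest. Mouse 2's papilloma had the lowest H2-K1 (9034), H2-D1 (7367), B2m (9138) and Nlrc5 (1521) of all 18 libraries, with H2-Aa at 2334, inside the range of the other papillomas. Summed over H2-Aa, H2-Ab1, H2-Eb1 and H2-Eb2, class II chains amounted to 45.1% to 70.1% of the sum of H2-K1 and H2-D1 in CHR and 2.93% to 38.9% in PAP. The ranges did not touch, and in SCC the share was 18.6% to 61.2%.

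Proportions among the 4 abundant class II messages were examined next. H2-Aa reads were 55.9% to 67.5% of Cd74 reads in CHR, 55% to 66.5% in PAP and 58.7% to 72% in SCC, with overlap between all groups. H2-Eb1 reads per H2-Aa read overlapped as well, with ranges of 0.681 to 0.754 for CHR, 0.661 to 0.836 for PAP and 0.658 to 0.836 for SCC. The ratio of H2-Ab1 to H2-Aa reads was 0.606 to 0.762 in CHR and 0.814 to 1.07 in PAP, without overlap, and 0.61 to 0.963 in SCC. This ratio was noticed after the values had been seen and was not tested.

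Markers of cells known to carry class II were lower as well, beside 28.7% of all genes called lower. All 5 pan-leukocyte markers were called lower in PAP, with a summed level of 14949.6 to 29170.4 in CHR and 849 to 5638 in PAP. Of 10 Langerhans and dendritic cell markers 9 were called lower, and their sum ranged from 5696 to 13296 in CHR and from 153 to 1821 in PAP. The defining marker of Langerhans cells, Cd207, fell from a mean of 519 to 114. For macrophages 9 of 9 markers were called lower (44511 to 72030.4 against 1476 to 10097 in sum), and for T cells 7 of 7 (751 to 1708 against 90.3 to 406). Of the B cell list only Cd79b was analysed, at 7.85 to 82.9 in CHR and 1.99 to 18.6 in PAP, and it was called lower. Mouse 10's papilloma, which had the lowest class II, was also the lowest of all 18 libraries in the leukocyte, dendritic and macrophage sums. Markers of other tissue were lower too, with 4 of 6 for dermal fibroblasts (132863 to 298852 in CHR and 4776 to 160352 in PAP in sum), 3 of 4 for adipocytes (5032 to 14694 and 1445 to 12779) and 5 of 5 for skeletal muscle called. Of 5 natural killer and cytotoxic markers 4 were called lower, while 2 of 4 neutrophil and 5 of 8 keratinocyte markers were called higher and 1 of each lower. The neutrophil markers called higher were S100a8 and S100a9, whereas the receptor Csf3r was called lower and Cxcr2 was not called. The part of all these cells in the class II result was not tested.

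Per read of the summed markers, the median of class II was higher in papilloma than in irradiated skin. These sums follow their most abundant genes. Itgax had a mean of 5709 in a mean dendritic sum of 8513 in CHR, and 522 in 900.4 in PAP. In PAP vs CHR, Ccr7 (not called) fell 1.67-fold, Flt3 3.47-fold and Clec10a 61.32-fold on the means. Class II per cell was not tested. Class II chain reads per read of the Langerhans and dendritic markers were 1.68 to 6.1 in CHR, 7.7 to 11.7 in PAP and 4.98 to 21.4 in SCC. Per macrophage marker read they were 0.301 to 0.824 in CHR, 0.718 to 2.48 in PAP and 0.402 to 1.86 in SCC, and per leukocyte marker read 0.736 to 2.53, 1.6 to 3.53 and 1.38 to 2.79. Of these 3 ratios only the dendritic one separated CHR from PAP without overlap, and the leukocyte ratio of mouse 2 was lower in its papilloma (1.6) than in its skin (2.1).

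**Figure D4:**
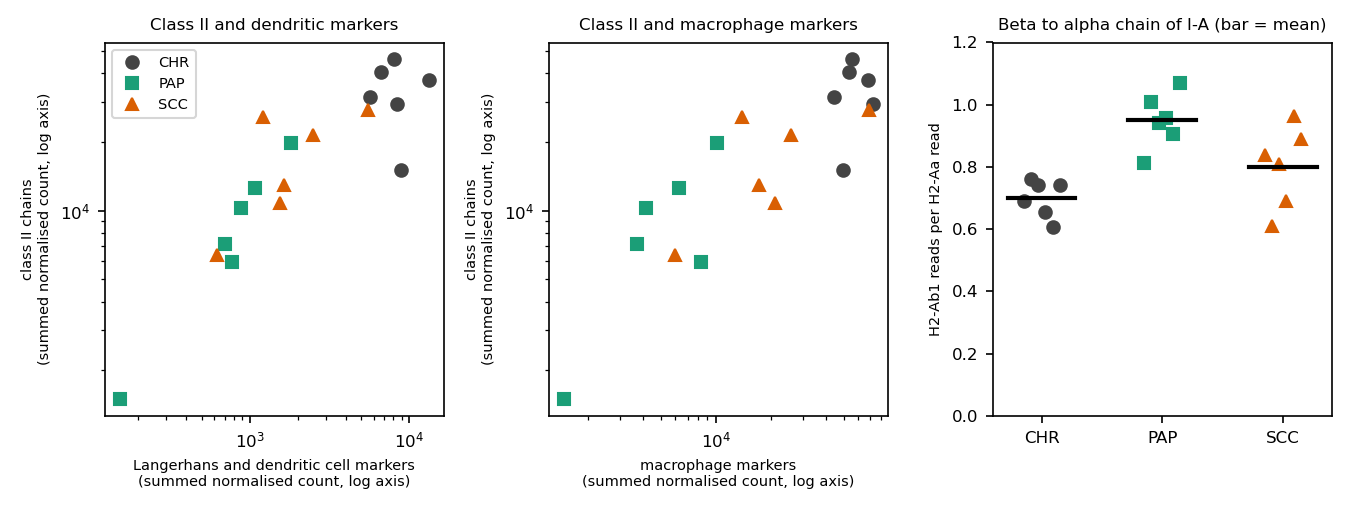
Left and middle, summed normalised count of 4 class II chains against the summed count of Langerhans and dendritic cell markers and of macrophage markers, 1 point per library on log axes. Right, H2-Ab1 reads per H2-Aa read by group with a bar at the mean; PAP (0.814 to 1.07) lies above CHR (0.606 to 0.762).

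Neighbouring steps of the 2 pathways were examined by gene lists, beside 28.7% of all genes called lower and 22.8% called higher in PAP. Of the list for endosomal class II processing, 8 of 8 analysed genes were called lower in PAP (median −1.37), among them the proteases Ctsz (mean 7258 in CHR and 921 in PAP), Ctsb (54684 and 13937), Ctsl (28406 and 9486) and Lgmn (8652 and 3444). These are lysosomal enzymes of many cell types. Among 8 genes for class I peptide loading and trimming 2 were called, both higher, namely the translocon subunit Sec61a1 (4715 and 6263) and the chaperone Pdia3 (6309 and 8074). Of 9 constitutive proteasome genes 2 were called higher, the regulator Psme3 (1451 and 2338) and Psmb7 (1485 and 2202), and Psmb5 was not analysed here. The shares of 2 in 8 and 2 in 9 are near the background. Psmb10 reads, the immunoproteasome counterpart of Psmb7, were 32% to 150.4% of Psmb7 reads in CHR and 25.4% to 62.9% in PAP, with overlap.

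Genes of the regulatory lists were set beside the background of 28.7% of all genes called lower and 22.8% called higher. The shares of 3 in 12 lower (interferon gamma signalling) and 3 in 11 higher (promoter factors) were near it. The share of 5 in 9 lower (costimulation and checkpoint) was above it. Of 12 interferon gamma signalling genes, 3 were called lower in PAP, the factors Irf8 (mean 1229.5 in CHR and 276 in PAP) and Irf2 (386 and 285) and the receptor chain Ifngr2 (1798 and 846), and 1 higher, the feedback inhibitor Socs3 (1203 and 2380.4). Of 11 factors that bind class I and class II promoters 3 were called, all higher: Nfkb1 (3541 and 5209), the NF-Y subunit Nfyb (593 and 891) and the RFX subunit Rfxap (221 and 306). Among 9 costimulation and checkpoint genes 5 were called lower, with Cd83 (783 and 96.3), Cd274 encoding PD-L1 (1420.5 and 464), Icos (330.1 and 130.2) and Cd86 (508 and 239) changing most, and Tnfsf9 was called higher.

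Carcinomas were compared with irradiated skin next. In SCC vs CHR, 6 of 12 class II genes were called lower (Ctss, H2-DMa, H2-DMb2, H2-Eb2, H2-Oa and H2-Ob), against 21.4% of all genes, and all 12 had fitted changes below 0 (median −0.93). With the mouse as replicate block the same fit called 12 of 12 lower, against 22.7% of all genes. Of the class I pathway 4 genes were called lower (H2-M3, H2-M5, H2-T23 and H2-T24) and 0 higher (15.1% of all genes were called higher), and the replicate block added H2-M2. Fitted changes were below 0 in 21 of the 24 class I genes (median −0.40, against −0.02 over all genes). Cd1d1 was lower without overlap, with a mean of 96.9 ± 27.3 against 239.8 ± 60.6 (limma adjusted p = 0.00358).

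On the fitted log2(value + 1) scale the 3 strongest decreases in carcinoma were those of H2-M5, Ctss and H2-T24. By the ratio of mean normalised counts H2-M5 was followed by the weak genes H2-Ob (3.68-fold), H2-Eb2 (3.10-fold), H2-DMb2 (3.06-fold) and H2-Oa (2.91-fold). After these came H2-T24 (2.59-fold), Cd1d1 (2.48-fold) and Ctss (2.26-fold). H2-M5 was at 1.03 to 17.9 normalised reads in SCC (median 6.04), below every CHR library (−1.61 ± 0.17, limma adjusted p = 4.51e-06), and its ratio of means was 15.66-fold. Ctss ranged from 2001 to 20188 in SCC (median 6128) and overlapped CHR in mouse 7, whose carcinoma was far above the other carcinomas (−1.44 ± 0.52, limma adjusted p = 0.0366). H2-T24 ranged from 244 to 1257 (median 426), with −1.29 ± 0.38 (limma adjusted p = 0.0141). Ctss lost its call without mouse 2, 3, 8 or 9 and H2-T24 without mouse 3 or 9. H2-DMa lost it without mouse 2, 3 or 8, H2-M3 without 2 or 3, H2-T23 without 3 and H2-Oa without 8. Groups without overlap in this direction were found for 4 of the 37 genes (Cd1d1, H2-DMb2, H2-M5 and H2-Ob), against 11.2% of all genes.

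The classical chains were intermediate in carcinoma. H2-Aa had 2489 to 11101 normalised reads in SCC (median 7012), lower than CHR in 6 of 6 mice, with −1.06 ± 0.48 (limma adjusted p = 0.0896, and 0.0093 with the replicate block). H2-Ab1 ranged from 2215 to 8982 (median 5214), H2-Eb1 from 1676 to 7708 (median 4944) and Cd74 from 3980.1 to 17969.8 (median 10799). Their adjusted p in limma were 0.153, 0.102 and 0.095, and 0.0413, 0.0111 and 0.0129 with the replicate block. Ciita was at 208 to 1186 (median 740.4), with adjusted p of 0.149 and 0.0112. All 5 genes overlapped CHR, and calls for them rest on the comparison within mice.

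Mean levels of the classical class I genes were lower in carcinoma than in irradiated skin, without a call in limma. H2-K1 ranged from 12148 to 24394 in SCC (median 21636), H2-D1 from 10074 to 21266 (median 16565) and B2m from 12479.9 to 35262 (median 24937). H2-D1 was lower than CHR in 6 of 6 mice, with a fitted change of −0.61 ± 0.28 (limma adjusted p = 0.0899), or 0.0551 with the replicate block, and was called in limma-voom with that block (adjusted p = 0.0495). H2-K1 and B2m had −0.52 ± 0.28 and −0.56 ± 0.32 (limma adjusted p = 0.155 and 0.18). Nlrc5 was at 2852 to 7157 (median 4399), Psmb8 at 965 to 5806 (median 2443), Psmb9 at 504 to 2553 (median 1006) and Tap1 at 2034 to 6160.0 (median 3509), none of them called. The log2 ratio of H2-Ab1 to H2-K1 in SCC minus CHR was −0.37 ± 0.60 (exact sign-flip permutation test, adjusted p = 0.219) and that of Cd74 to B2m −0.52 ± 0.59 (adjusted p = 0.113), below 0 in 4 and 5 of 6 mice.

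Markers of immune cells went in both directions in SCC vs CHR, where 21.4% of all genes were called lower and 15.1% higher. Called lower were 5 of 5 leukocyte, 9 of 10 Langerhans and dendritic, 5 of 9 macrophage and 5 of 7 T cell markers. Of 4 neutrophil markers 2 were called higher (S100a8 and S100a9) and 0 lower, while the receptors Csf3r and Cxcr2 had fitted changes of −0.17 and 0.00. Of 5 natural killer and cytotoxic markers 1 was called higher and 2 lower. The part of these cells in the carcinoma results was not tested. The summed Langerhans and dendritic markers were at 626 to 5538 in SCC and the macrophage markers at 6009 to 68546, the latter overlapping CHR through the carcinoma of mouse 7. Of the endosomal processing list 6 of 8 genes were called lower. Cd207 was called lower in SCC than in CHR, without overlap.

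The last comparison set carcinoma against papilloma of the same mice. In SCC vs PAP, Ctss alone of the 37 genes was called, with a mean of 8039 ± 6419 in SCC and 2169 ± 1447 in PAP, higher in 6 of 6 mice (1.84 ± 0.52, limma adjusted p = 0.0461). Of all genes, 4.99% were called higher and 0.592% lower. The call was lost without mouse 2, 3, 7, 8 or 9, with an adjusted p of 0.0511 to 0.229. With the mouse as replicate block 5 class II genes (Cd74, Ctss, H2-Aa, H2-DMb1 and H2-Eb1) and H2-M3 were called higher, against 8.75% of all genes. limma-voom on recovered reads without the block called 0 of the 37 genes.

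Levels of class II in carcinoma lay mostly between those of papilloma and skin. Of the 12 class II genes 11 had a fitted change above 0 in SCC vs PAP (median 0.81), and 11 of the 24 class I genes (median −0.04). H2-Aa was higher in SCC than in PAP in 6 of 6 mice and H2-Ab1, H2-Eb1, Cd74 and Ciita in 5 of 6, with mouse 3 as the exception each time. H2-K1 and B2m were lower in 4 of 6 mice and H2-D1 in 3 of 6. Within libraries the log2 ratio of H2-Ab1 to H2-K1 was above that of PAP by 1.15 ± 0.78 and the ratio of Cd74 to B2m by 1.28 ± 0.91, each in 6 of 6 mice (exact sign-flip permutation test, p = 0.0312, adjusted p = 0.0469). Treating the 12 libraries as unpaired, the exact permutation test gave adjusted p of 0.0844 for both. Beside 4.99% of all genes called higher in SCC, 5 of 9 macrophage, 4 of 5 skeletal muscle, 2 of 4 endothelial, 1 of 6 dermal fibroblast and 1 of 5 leukocyte markers were called higher. Of 8 keratinocyte markers 2 were called lower, and limma called 0 of 10 Langerhans and dendritic markers (4 at an unadjusted p under 0.05). Their part in the ratios was not tested.

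The comparison between mice asked whether a level followed the animal through its 3 tissues. H2-Aa, H2-Ab1, H2-Eb1, Cd74 and Ciita were each lowest in mouse 10 in all 3 tissues, and H2-DMa and H2-DMb1 likewise. In a fit with group and mouse, a limma F test over the mouse terms called 6 of 14521 genes (0.0413%), of which 0 belonged to the 37. At an unadjusted p under 0.05 it found 10 of 12 class II genes and 6 of 24 class I genes, against 10.6% of all genes, and limma-voom found the same counts. The strongest of the set were Ciita (F = 11.30, adjusted p = 0.177), H2-M3 (F = 8.84, adjusted p = 0.257) and H2-Eb1 (F = 8.22, adjusted p = 0.293). H2-M3 ranged from 309 to 850.4 in CHR (median 688), 116 to 302 in PAP (median 197) and 161 to 491 in SCC (median 348), and mouse 10 was lowest in CHR and SCC while mouse 2 was lowest in PAP. The strain is outbred, H2 genes are highly polymorphic and reads were aligned to a single reference genome. A mouse's alleles and its level therefore cannot be told apart. Ciita and Cd74 are not H2 genes and lie on chromosomes 16 and 18, and the part of alleles in their levels was not tested.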

How the data were processed

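Poly(A) RNA of 18 skin libraries was sequenced. The authors aligned the mouse reads to mm10, obtained gene counts from HTSeq, normalised these with scaling factors and then stabilised their variance. Their methods also mention a scaling of batches per gene. Aligner of the mouse reads, annotation release, software versions and strand setting are not given in the sources used here. What the authors deposited is a score, the stabilised count put back on a linear scale and rounded, in which 0 reads appear as 39. Of 14542 entries, 21 with a number in place of a symbol (at most 0.236% of a library's total) were left out.

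The transformation was inverted with a fitted zero level of 39.12 and size factors of 0.834 to 1.175. Whole reads gave 99.2% of values exactly (tolerance 0), with a single size factor for each library. Because the deposited values are transformed scores and not raw counts, the planned edgeR test for raw counts was not used. The main test was limma 3.58.1 (R 4.3.3) on log2(value + 1), 1 coefficient per group, all 18 libraries, no covariate, two-sided, with Benjamini-Hochberg adjustment over 14521 genes and a threshold of 0.05. Ratios of genes were compared within mice by exact sign-flip tests on log2(normalised count + 1). Scripts were tested on simulated data, where 82% of reads were recovered exactly and the largest error of a size factor was 0.12%.

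Same-numbered libraries come from the same animal, which pairs them, and the correlation of their deviations from group means was −0.24 to 0.51. Alternatives were the mouse as replicate block, 2 groups only, other scales, scalings and filters (10 reads), limma-voom, and leaving out each mouse. Libraries are 1 tissue piece each, so differences between animals and between tissue pieces cannot be told apart. The main fit has no mouse term and treats libraries of the same mouse as independent. Its p-values therefore measure the spread between libraries within groups. Those of the replicate block and the sign-flip tests measure the spread of differences within the 6 mice.

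Genes, lists and tests were chosen with earlier results of these data known. All 37 genes are accounted for. Ranges over libraries are given for 12 core genes and for the 3 largest called increases and decreases of each comparison. They are also given for the 3 largest mouse effects. At most 4 called genes of other lists are given with values. All 37 symbols matched GENCODE M21 (GRCm38), from which exon lengths and coordinates come. Promoters are RefSeq GRCm38.p6.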

Additional observations from a re-analysis of the deposited data

How the results depend on the processing

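The class II decrease in PAP vs CHR (12 genes) held at 8 to 12 genes in every alternative, the 8 coming from a filter of at least 10 reads in every library, which tests fewer genes, and at 11 to 12 when 1 mouse was left out. The class I count in PAP vs CHR was 4 to 7 in all alternatives, 5 to 7 of them without 1 mouse. In SCC vs CHR the class II count of 6 became 12 with the replicate block, 12 in limma-voom with the replicate block, 10 with only the 2 groups fitted and 2 with at least 10 reads in every library. Without 1 mouse it was 3 to 11, 3 without mouse 8 and 11 without mouse 10. The class I count of 4 was 1 to 5 without 1 mouse, 1 without mouse 3. In SCC vs PAP the class II count of 1 became 5 with the replicate block, 4 in limma-voom with it, and 0 with only the 2 groups, on log2(normalised count + 1), in limma-voom and with at least 10 reads in every library, and was 0 to 2 without 1 mouse. The class I count of 0 became 1 in both fits with the replicate block and stayed 0 without 1 mouse. The mouse effect count was 0 for both classes in all alternatives. The replicate block changed no other count by over 1.5 times.

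The log2 ratio of H2-Ab1 to H2-K1 was −1.74 to −1.05 in PAP vs CHR, 0.87 to 1.28 in SCC vs PAP and −0.48 to −0.19 in SCC vs CHR without 1 mouse. The ratio of Cd74 to B2m was −2.05 to −1.28, 0.95 to 1.43 and −0.67 to −0.33. With 5 mice no such test can pass the threshold. Without the replicate block the SCC vs PAP differences of 1.15 and 1.28 had an adjusted p of 0.0844 by exact permutation. Among the 62 results of single genes that were followed, signs turned in 12 settings, each time in a gene that was not called. In SCC vs PAP these were H2-D1 (−0.36 to 0.02 without 1 mouse, the latter without mouse 3), Nlrc5 (−0.01 centred on the median, −0.11 to 0.26 without 1 mouse, below 0 without mouse 2, 8 or 9), Psmb8 (−0.04 to 0.24, below 0 without mouse 8 or 9), Psmb9 (−0.27 to 0.16, above 0 without mouse 3 or 10) and Tap1 (−0.38 to 0.05, above 0 without mouse 3). In PAP vs CHR they were Psmb9 (−0.72 to 0.07) and Tap1 (−0.45 to 0.19), both above 0 without mouse 2. Genes outside these results were not counted, such as H2-T10 in PAP vs CHR (−0.01, and 0.07 in limma-voom with the replicate block). The cause was not tested. Of 111 sets of 6 values (each gene in each group), 0 held a value beyond Dixon's limit for groups of 6, where chance gives about 5%.

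Depth limits H2-Q2, H2-Q10, H2-Oa, H2-Ob, H2-Eb2, H2-M5 and H2-M9, whose group means fall under 30 normalised reads in at least 1 tissue.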
